A study of Mus musculus with 12 samples.

Results

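The ubiquitin ligases of muscle atrophy and the FoxO factors were followed in mouse hearts that express an expanded GGC repeat of the human gene NOTCH2NLC. The group comprised 9 genes, chosen by gene symbol from a table of 25171 loci: the MuRF ligases Trim63 (MuRF1), Trim55 (MuRF2) and Trim54 (MuRF3), the F-box proteins Fbxo32 (atrogin-1, also called MAFbx) and Fbxo30 (MUSA1), the forkhead factors Foxo1, Foxo3 and Foxo4, and the growth factor gene Mstn (myostatin). The rule used gene symbols and no measured value, and all 9 were found in the table.

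Heart tissue was taken from 12 mice in 4 groups of 3, and its RNA was sequenced in bulk; whether whole hearts were used is not stated. All 12 mice carried a conditional transgene at Rosa26 in which a loxP-flanked stop precedes NOTCH2NLC with 98 GGC repeats. EIIa-tg mice also carried EIIa-Cre, which removes the stop in most tissues, and were taken at 30 days of age with EIIa-ctl littermates that lacked the Cre. Myh6-tg and Myh6-ctl mice are both labelled as carrying Myh6-creERT2, a Cre that needs tamoxifen and is driven by the promoter of the cardiac alpha myosin heavy chain gene; from 60 days of age Myh6-tg mice were given 3 injections of tamoxifen at 75 mg per kg and Myh6-ctl mice were given corn oil alone, and both were taken at 90 days of age. Tamoxifen and transgene expression therefore cannot be told apart in the Myh6 comparison, and age, Cre line and oil cannot be told apart between the control groups. The EIIa-tg hearts of replicates 2 and 3 carry genotype labels that differ from that of replicate 1 and were grouped by title.

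Muscle wasting is carried largely by the ubiquitin-proteasome system, in which E3 ligases mark sarcomere and other muscle proteins for degradation. Trim63 and Fbxo32 are the ligases most often measured as markers of atrophy. Their transcription is switched on by FoxO factors in the nucleus, and insulin-like growth factor signalling through Akt holds FoxO factors in the cytoplasm. Myostatin, a secreted inhibitor of muscle growth made mainly in skeletal muscle, acts through activin receptors and Smad proteins and lowers Akt activity.

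Each library held between 38343106 and 50969834 counts assigned to loci, so 3 counts, the level taken here as the floor, equalled 0.0559 to 0.0822 CPM (counts scaled to library size, and between libraries by trimmed means of M values). Myh6 matched the heart label, at 722.5 scaled CPM or more in every heart, whereas Myh1, Myh2 and Myh4, the myosins of skeletal muscle, had at most 11 counts in any heart. Other genes of the skeletal muscle marker list were present. Tnnt3 reached 48.07 scaled CPM and Tnnt1 24.23 in Myh6-tg replicate 1, and Mybpc2 reached 49.24 in Myh6-tg replicate 2. Of the skeletal muscle markers tested, 3 of 4 were called higher in EIIa-tg hearts and 1 of 5 in Myh6-tg hearts. Over all genes tested, 8.65% and 8.96% were called higher. Y-linked genes were found in the replicate 1 heart of all 4 groups (4224 to 7307 counts) and were near absent elsewhere, with no more than 2 counts. Mitochondrially encoded genes took 15.5 to 18.6% of counts in Myh6-tg hearts and 28.5 to 38.3% in the other groups. Esr1, whose sequence forms part of tamoxifen-dependent Cre proteins, stood at 1027 to 2336 scaled CPM in the 3 libraries labelled Myh6-ctl and at 0.411 to 2.49 in all others, those labelled Myh6-tg included, although both Myh6 groups bear the same genotype label. Every direction in the Myh6 comparison rests on these labels.

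Compared per transcript length, as fragments per kilobase and library size (FPKM, the authors' values), the MuRF genes were the highest of the 9. In EIIa-ctl hearts Trim54 averaged 100.5 FPKM ± 0.393 (SD, n = 3), Trim63 64.1 ± 7.42 and Trim55 25.6 ± 0.595. Fbxo32 followed at 11.8 FPKM ± 1.85, Foxo4 at 10.3 ± 0.438, Foxo3 at 8.16 ± 1.03, Fbxo30 at 4.74 ± 0.401 and Foxo1 at 3.40 ± 0.194 (SD, n = 3). Mstn was listed at 0.0358 FPKM in 1 EIIa-ctl heart and at 0 in the others. Only Fbxo32 and Foxo4 overlapped among neighbours in this order. The order Trim54, Trim63, Trim55, Fbxo32 by mean FPKM was found in each of the 4 groups. In Myh6-tg hearts the ranges of neighbouring genes overlapped from Trim54 down to Fbxo30, and Trim63 ranged from 26.9 to 118 FPKM there and Fbxo32 from 6.89 to 21.1.

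**Figure D1:**
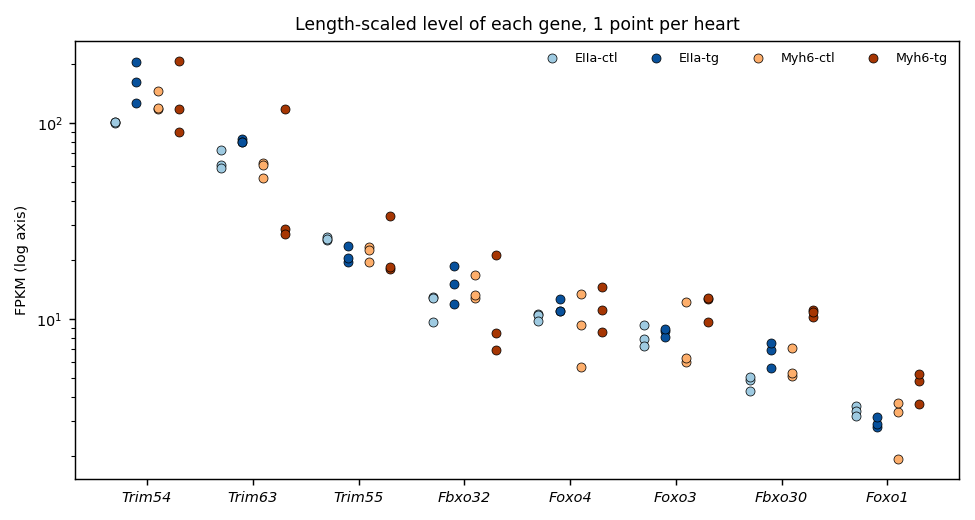
FPKM (log axis) of 8 genes in each of 12 hearts, 1 point per heart, coloured by group; Mstn, listed at 0 in some hearts, is left out. The MuRF genes are on the left, and the Myh6-tg hearts spread most for Trim63, from 26.9 to 118 FPKM.

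The promoter of Trim63 is shown because it holds a match to the FoxO-binding element, and that of Trim54 because it is the highest member and holds none. Each sequence covers 250 bases before to 50 bases after the transcription start in RefSeq on GRCm38.p6, and capitals mark the element GTAAACA on either strand (in Trim63 it lies on the reverse strand). Trim63 lies on chromosome 4 (chr4:134314870-134315169, plus strand) and Trim54 on chromosome 5 (chr5:31116362-31116661, plus strand).
Trim63: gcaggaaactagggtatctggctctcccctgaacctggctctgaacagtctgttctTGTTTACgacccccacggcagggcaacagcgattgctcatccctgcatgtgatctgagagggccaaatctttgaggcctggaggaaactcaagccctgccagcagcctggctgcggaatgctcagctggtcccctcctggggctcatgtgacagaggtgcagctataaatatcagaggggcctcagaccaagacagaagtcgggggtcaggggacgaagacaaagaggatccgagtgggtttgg
Trim54: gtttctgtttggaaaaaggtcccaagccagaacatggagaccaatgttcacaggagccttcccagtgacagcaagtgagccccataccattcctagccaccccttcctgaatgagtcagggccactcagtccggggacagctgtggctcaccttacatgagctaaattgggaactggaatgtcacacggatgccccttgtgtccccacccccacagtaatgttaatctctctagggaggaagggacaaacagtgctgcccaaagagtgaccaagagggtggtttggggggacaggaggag
The match in Trim63 begins 194 bases before the start, and a TATA box (TATAAA, either strand) begins 31 bases before it. Of the 9 genes, 6 had a promoter in the RefSeq table, and 1 of these 6, Trim63, held GTAAACA, against 3.65% of all 32851 promoters of the same length. TATAAA was found for Trim63 and Mstn, against 13.6% of all promoters. The E-box CANNTG, a motif that matches both strands alike, was found for Trim63, Trim54, Foxo1 and Mstn, against 72.3% of all promoters. These matches describe letters in a window and were not tied to binding in these hearts.

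The first comparison asked whether the 9 genes differ between EIIa-tg hearts, in which the Cre acts ubiquitously, and EIIa-ctl hearts at 30 days. Of the 8 genes with enough counts to be tested, 2 were lower, Trim55 and Foxo1, and 0 were higher, by edgeR's quasi-likelihood test at an adjusted p under 0.05, against 17% of all 14908 genes called in either direction (8.65% higher and 8.3% lower). The atrophy markers Trim63 and Fbxo32 overlapped between the groups. The members had a median log2 fold change of 0.05, against 0.02 over all genes tested. In bulk tissue, fewer cells of a type and less RNA per cell cannot be told apart.

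Among the MuRF ligases, which associate with the sarcomere, Trim55 stood at 77.45, 74.5 and 75.9 scaled CPM in EIIa-ctl replicates 1, 2 and 3 and at 51.4, 63.45 and 49.2 in EIIa-tg. All EIIa-tg hearts lay below all EIIa-ctl hearts. The log2 fold change was -0.47 (SE 0.11, edgeR adjusted p = 0.0301), or 0.723 times the control level. Trim54 stood at 172, 157 and 166 scaled CPM in EIIa-ctl and at 298, 189.5 and 215.5 in EIIa-tg, with EIIa-tg replicate 1 the highest. The groups did not overlap, but the log2 fold change of 0.52 (SE 0.16, edgeR adjusted p = 0.0622) missed the threshold. Trim63 stood at 137, 121 and 158 scaled CPM in EIIa-ctl and at 159, 157 and 139 in EIIa-tg. These groups overlapped, with a log2 fold change of 0.14 (SE 0.12, edgeR adjusted p = 0.450).

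Fbxo32 and Fbxo30 are F-box proteins, the parts of SCF ligase complexes that choose the substrate. Fbxo32 stood at 107, 73.5 and 103 scaled CPM in EIIa-ctl and at 131, 86.6 and 97.2 in EIIa-tg. The groups overlapped, and the log2 fold change was 0.16 (SE 0.19, edgeR adjusted p = 0.582). Fbxo30 stood at 29.2, 28.0 and 25.03 scaled CPM in EIIa-ctl and at 35.5, 29.6 and 35.2 in EIIa-tg. Every EIIa-tg heart was above every EIIa-ctl heart, and the log2 fold change of 0.29 (SE 0.12, edgeR adjusted p = 0.115) missed the threshold. Thus 4 of the 8 tested members did not overlap between the groups, against 41.1% of all genes tested (20% above and 21.1% below), and 4 had an unadjusted p under 0.05, against 34.9%. At an adjusted p under 0.01 with a log2 fold change of at least 1, 0 members and 0% of genes were called by edgeR.

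Of the FoxO factors, which act downstream of Akt, Foxo1 stood at 37.0, 32.15 and 32.0 scaled CPM in EIIa-ctl and at 24.6, 26.2 and 25.3 in EIIa-tg. The groups did not overlap, and Foxo1 was lower in EIIa-tg hearts with a log2 fold change of -0.40 (SE 0.10, edgeR adjusted p = 0.0345), or 0.755 times the control level. Foxo3 stood at 64.5, 53.9 and 72.8 scaled CPM in EIIa-ctl and at 59.7, 57.0 and 55.8 in EIIa-tg (log2 fold change -0.14, SE 0.12, edgeR adjusted p = 0.4325). Foxo4 stood at 39.8, 36.3 and 35.7 scaled CPM in EIIa-ctl and at 40.6, 36.15 and 32.0 in EIIa-tg (log2 fold change -0.03, SE 0.12, edgeR adjusted p = 0.867). Foxo3 and Foxo4 overlapped between the groups. On FPKM values their log2 fold changes were 0.06 and 0.15, where the median of all genes was 0.16, so relative to that median they were -0.10 and -0.01.

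Mstn gave 5, 0 and 0 counts in EIIa-ctl hearts and 19, 6 and 36 in EIIa-tg hearts. It was too low to be tested here, and in no heart did it exceed 36 counts.

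The calls of Trim55 and Foxo1 were not stable to the choice of hearts. The log2 fold changes stayed negative in all 18 alternatives, between -0.59 and -0.39 for Trim55 and between -0.44 and -0.34 for Foxo1 with single hearts left out. Both calls were lost when EIIa-ctl replicate 1, 2 or 3 or EIIa-tg replicate 1 or 3 was left out. The edgeR adjusted p then lay between 0.0533 and 0.1175. Both were also lost in the fit of all 12 hearts (edgeR adjusted p = 0.302 for Trim55 and 0.207 for Foxo1, with 1.43% of all genes called). The same held among hearts without Y-linked counts (edgeR adjusted p = 0.247 and 0.270, with 0% called). Without EIIa-tg replicate 2, 5 members were called, 3 of them higher and 2 lower, against 26.6% of all genes. That heart was the transgenic heart nearest to its controls in summed cardiomyocyte markers. Of the fits with single hearts left out, this one gave the most member calls, so those calls carry no independent support. Cardiomyocyte marker transcripts summed to 42300 to 51100 scaled CPM in EIIa-ctl hearts and to 21010, 37090 and 20650 in EIIa-tg hearts, with 2 of 8 markers lower, all 8 detected and none at 0. Macrophage and leukocyte markers were higher for 7 of 7 tested, summing to 779 to 1023 scaled CPM against 362 to 564. Endothelial markers summed to 726 to 829 scaled CPM in EIIa-tg against 959 to 1088 in EIIa-ctl (3 of 6 lower), fibroblast markers to 2730 to 3938 against 1492 to 2173 (2 of 8 higher) and erythroid markers to 198 to 1287 against 1554 to 2627 (1 of 5 lower). Over all genes tested, 8.65% were called higher and 8.3% lower. None of these groups of sums overlapped, and their part in the result was not tested.

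**Figure D2:**
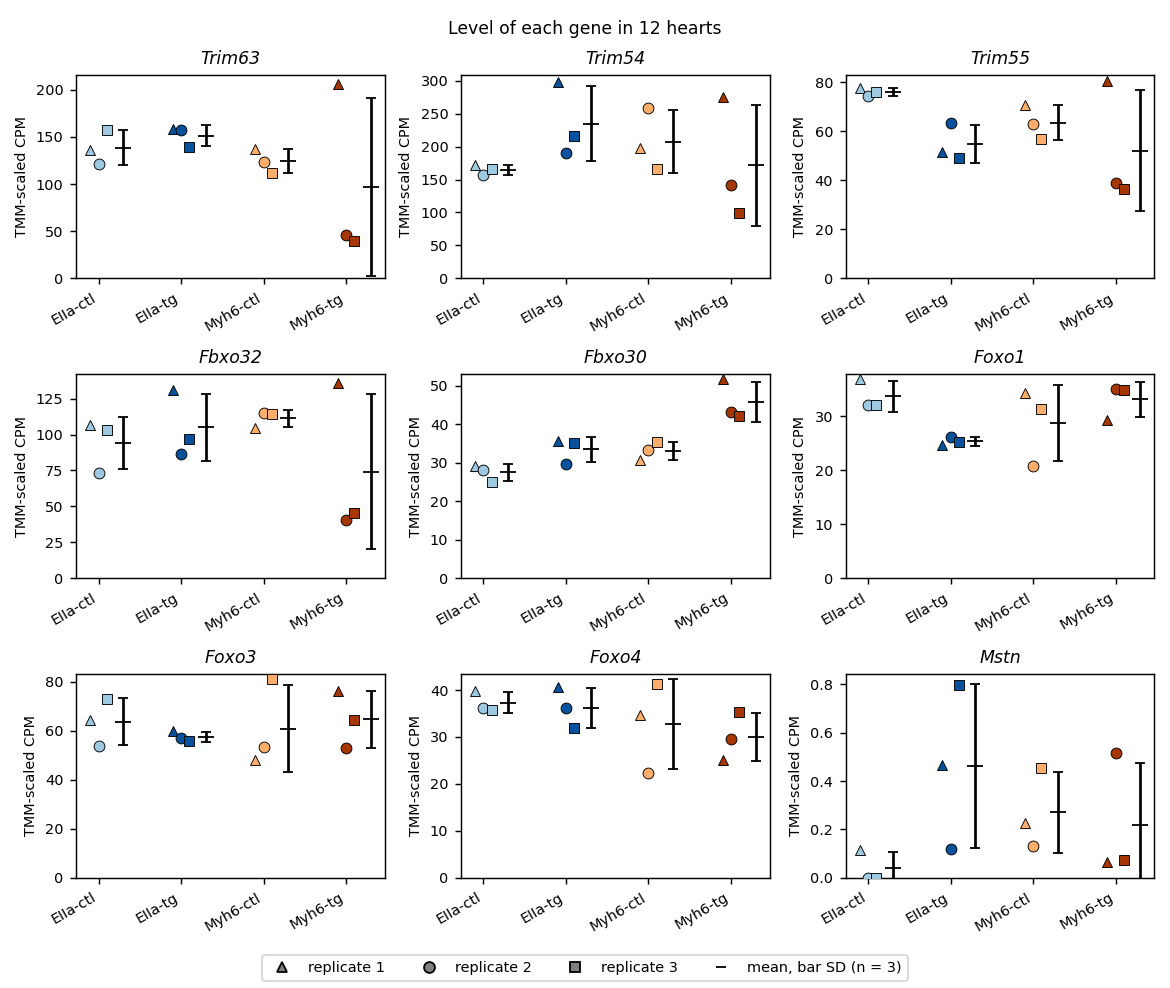
Scaled CPM of each of the 9 genes in 12 hearts, by group; triangles, circles and squares mark replicates 1, 2 and 3, and bars give the mean and SD (n = 3). Trim55 and Foxo1 are lower in EIIa-tg than in EIIa-ctl hearts, and for Trim63 and Fbxo32 the Myh6-tg heart of replicate 1 (206 and 136) stands far above the other Myh6-tg hearts.

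The Myh6 comparison asked the same of the hearts labelled Myh6-tg and Myh6-ctl, whose Esr1 levels differed despite their shared genotype label, as given above. Of 8 members tested, 0 were called in either direction by edgeR, 1 had an unadjusted p under 0.05 and DESeq2 called 0, against 18.3% of all 15298 genes called by edgeR (8.96% higher and 9.38% lower) and 34.1% with an unadjusted p under 0.05. At an adjusted p under 0.01 with a log2 fold change of at least 1, 0 members were called, against 3.97% of genes. The 3 Myh6-tg hearts did not behave alike. For 4 of the 5 ligases (Trim63, Fbxo32, Trim54 and Trim55), Myh6-tg replicate 1 lay above every Myh6-ctl heart and replicates 2 and 3 lay below every Myh6-ctl heart. The median log2 fold change of the members was -0.18, against 0.03 over all genes tested.

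Trim63 stood at 137, 123 and 112 scaled CPM in Myh6-ctl hearts and at 206, 45.6 and 39.1 in Myh6-tg hearts. Relative to the mean of the controls, the Myh6-tg hearts held 1.66, 0.367 and 0.3145 times as much. Over all 3 Myh6-tg hearts the log2 fold change was -0.34 (SE 0.59, edgeR adjusted p = 0.729), and without replicate 1 it was -1.54 (SE 0.17, edgeR adjusted p = 0.00158). That fit was singled out for the divergent values of replicate 1 in these same genes, so its calls carry no independent support. With single hearts left out in turn, the log2 fold change of Trim63 ran from -1.54 to 0.0359. Fbxo32 stood at 104, 115 and 114 scaled CPM in Myh6-ctl and at 136, 40.4 and 45.3 in Myh6-tg, that is at 1.225, 0.363 and 0.407 times the control mean. Its log2 fold change was -0.57 (SE 0.44, edgeR adjusted p = 0.405) with all hearts and -1.36 (SE 0.16, edgeR adjusted p = 0.00168) without Myh6-tg replicate 1. With single hearts left out in turn, it ran from -1.36 to -0.27. The markers Trim63 and Fbxo32 thus had the same pattern over the Myh6-tg hearts, replicate 1 above the controls and replicates 2 and 3 well below them.

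Trim55 stood at 70.9, 62.9 and 56.8 scaled CPM in Myh6-ctl and at 80.5, 39.1 and 36.6 in Myh6-tg. Without Myh6-tg replicate 1 it was lower, with a log2 fold change of -0.73 (SE 0.16, edgeR adjusted p = 0.01795), against -0.27 (SE 0.31, edgeR adjusted p = 0.587) with it. Trim54 stood at 197, 259 and 166 scaled CPM in Myh6-ctl and at 275, 141 and 98.5 in Myh6-tg. It missed the threshold both with replicate 1 (log2 fold change -0.26, SE 0.37, edgeR adjusted p = 0.677) and without it (-0.78, SE 0.25, edgeR adjusted p = 0.0583). Without that heart, 3 of 9 members tested were called, all lower, against 26.7% of all genes. Among the 4 hearts without Y-linked counts in both Myh6 groups, a fit that also lacks Myh6-tg replicate 1, the same 3 members were called lower. Their log2 fold changes were -1.405 for Fbxo32, -1.46 for Trim63 and -0.65 for Trim55, against 21.1% of all genes called.

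Fbxo30 did not show the pattern of the other ligases over the Myh6-tg hearts, though ligases were not tested against each other. It stood at 30.55, 33.3 and 35.25 scaled CPM in Myh6-ctl hearts and at 51.6, 43.2 and 42.2 in Myh6-tg hearts, replicate 1 included. It was the only tested member whose Myh6 groups did not overlap, against 40.1% of all genes tested (19.8% above and 20.3% below). Its log2 fold change of 0.49 (SE 0.16, edgeR adjusted p = 0.0748) missed the threshold with the 6 hearts, and passed it at 0.49 (SE 0.13, edgeR adjusted p = 0.0164) in the fit of all 12 hearts, in which 31.7% of all genes were called.

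The FoxO factors overlapped between Myh6-ctl and Myh6-tg hearts. Foxo1 stood at 34.3, 20.8 and 31.4 scaled CPM in Myh6-ctl and at 29.3, 35.2 and 34.99 in Myh6-tg (log2 fold change 0.22, SE 0.22, edgeR adjusted p = 0.526). Foxo3 stood at 48.1, 53.25 and 81.3 scaled CPM in Myh6-ctl and at 76.3, 53.0 and 64.5 in Myh6-tg (log2 fold change 0.10, SE 0.25, edgeR adjusted p = 0.809). Foxo4 stood at 34.6, 22.3 and 41.4 scaled CPM in Myh6-ctl and at 25.01, 29.6 and 35.2 in Myh6-tg (log2 fold change -0.11, SE 0.26, edgeR adjusted p = 0.802). All Myh6-tg hearts lay within the range of the controls for Foxo3 and Foxo4, as did replicate 1 for Foxo1, and the sign of Foxo3 turned without Myh6-tg replicate 1. Mstn gave 10, 5 and 24 counts in Myh6-ctl and 3, 24 and 4 in Myh6-tg, again too few to be tested.

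**Figure D3:**
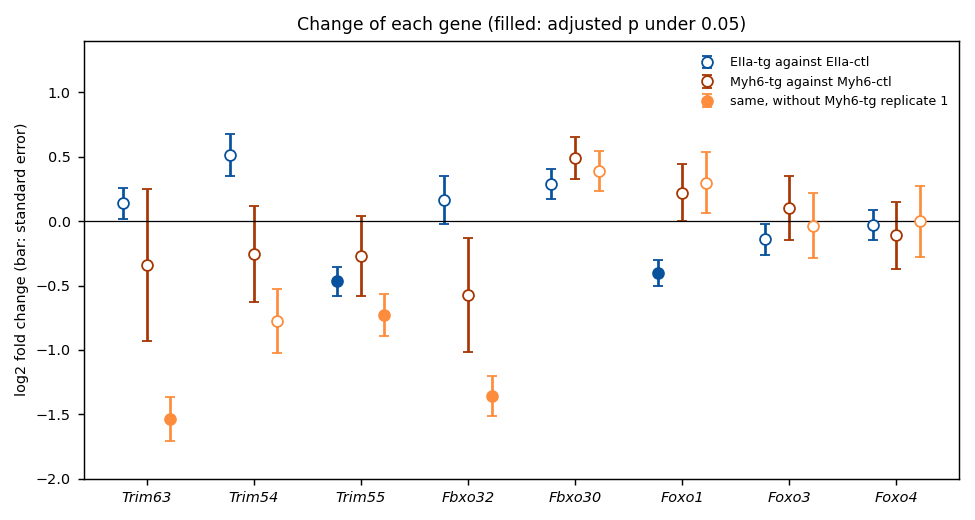
Log2 fold change of 8 genes with standard errors, for EIIa-tg against EIIa-ctl, Myh6-tg against Myh6-ctl, and the latter without Myh6-tg replicate 1; filled points had an adjusted p under 0.05 (edgeR). Leaving out that heart, which was singled out for its values in these genes, moves Trim63 from -0.34 to -1.54 and Fbxo32 from -0.57 to -1.36, and shortens their error bars.

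The hearts also differed in cardiomyocyte transcripts. The 8 cardiomyocyte markers summed to 41760, 43630 and 32040 scaled CPM in Myh6-ctl and to 29580, 12270 and 9120 in Myh6-tg, with 5 of 8 lower and none at 0. Fibroblast markers summed to 3259, 7662 and 8011 scaled CPM in Myh6-tg, against 1970 to 2523 in Myh6-ctl, and macrophage and leukocyte markers to 1715, 759 and 731 in Myh6-tg, against 696 to 1194. Replicate 1 was therefore the Myh6-tg heart with the most cardiomyocyte and leukocyte marker transcripts and the fewest fibroblast ones. The cardiomyocyte markers of that heart did not move alike. Tnnt2 (9554 scaled CPM against 3182 to 4789 in Myh6-ctl) and Ryr2 (815 against 356 to 566) lay above every control. Actc1 (11550) lay within the range of the controls. Myh6 (2867 against 7235 to 10530), Tnni3, Myl2, Myl3 and Pln lay below every control. The part of these values in the result was not tested. Over all genes tested, 8.96% were called higher and 9.38% lower. In Myh6-tg hearts atrial markers summed to 4150 to 6443 scaled CPM, against 153 to 1824 in Myh6-ctl (1 of 3 tested higher). In EIIa-tg hearts they summed to 507 to 778.5, against 118 to 358 in EIIa-ctl (1 of 2 tested higher). Divided by 1000 CPM of summed cardiomyocyte markers, Trim63 stood at 2.82 to 3.49 CPM in Myh6-ctl and at 6.96, 3.715 and 4.28 in Myh6-tg, and Fbxo32 at 2.50 to 3.57 and at 4.604, 3.29 and 4.96. On that scale no Myh6-tg heart lay below its controls for Trim63, and for Fbxo32 the groups overlapped. Fbxo30 stood at 0.732 to 1.10 CPM per 1000 CPM of markers in Myh6-ctl and at 1.745, 3.52 and 4.63 in Myh6-tg. Trim54 stood at 4.72 to 5.94 in Myh6-ctl and at 9.29 to 11.5 in Myh6-tg, and Trim55 at 1.44 to 1.77 and at 2.72 to 4.02, so that Trim54, Trim55 and Fbxo30 lay above their controls in every Myh6-tg heart. In the EIIa model Trim55 stood at 1.49 to 1.76 CPM per 1000 CPM of markers in EIIa-ctl and at 2.445, 1.71 and 2.38 in EIIa-tg, so the groups overlapped and the lower level seen in scaled CPM was not found on this scale. Trim63 stood at 2.86 to 3.09 in EIIa-ctl and at 7.55, 4.24 and 6.72 in EIIa-tg, and Fbxo32 at 1.74 to 2.31 and at 6.24, 2.335 and 4.705. Trim54 stood at 3.25 to 3.71 in EIIa-ctl and at 5.11 to 14.2 in EIIa-tg, and Fbxo30 at 0.490 to 0.663 and at 0.798 to 1.70. These 4 ligases lay above their controls in every EIIa-tg heart on this scale. These quotients are given without a test, as several markers themselves fell, and they are not levels per cardiomyocyte. In EIIa-tg hearts Myh6 averaged 4918 scaled CPM against 12500 in EIIa-ctl, and Actc1 6088 against 11400. Only 1 of the 8 markers, Tnnt2, had a positive log2 fold change in each model, at 4352 against 4099 in the EIIa groups. In scaled CPM, Trim63 and Fbxo32 overlapped between the EIIa groups, as given above.

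Whether the changes differed between the models was tested as the Myh6 change minus the EIIa change over all 12 hearts. None of the 9 members was called by edgeR, 1 had an unadjusted p under 0.05 and DESeq2 called 0, against 3.92% of all genes called by edgeR (1.65% higher and 2.27% lower) and 19.4% with an unadjusted p under 0.05. The stricter rule took in 0.622% of genes and 0 members. The member with the lowest p was Foxo1, with a difference of 0.62 on the log2 scale (SE 0.24, edgeR adjusted p = 0.1865). Without Myh6-tg replicate 1, Trim63 (-1.68, SE 0.20, edgeR adjusted p = 0.0008625), Fbxo32 (-1.53, SE 0.26, edgeR adjusted p = 0.00462) and Trim54 (-1.30, SE 0.31, edgeR adjusted p = 0.0231) had lower changes in the Myh6 model, against 10.6% of all genes called. That heart was singled out for its values in these same genes, so these calls carry no independent support. With all hearts the edgeR adjusted p of the difference was 0.750 for Trim63, 0.489 for Fbxo32 and 0.375 for Trim54. Trim63 and Fbxo32 were also called among hearts without Y-linked counts, a fit that lacks the same heart. Their differences there were -1.55 and -1.47, against 3.26% of all genes called. With single hearts left out in turn, the differences ran from -1.68 to -0.11 for Trim63, from -1.53 to -0.45 for Fbxo32 and from -1.30 to -0.50 for Trim54. Without EIIa-tg replicate 2, 0 members and 2.02% of genes were called for the difference.

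Between the control groups, Myh6-ctl at 90 days and EIIa-ctl at 30 days, 0 of 8 members were called by edgeR, 0 had an unadjusted p under 0.05 and DESeq2 called 0, against 0.0334% of all genes called by edgeR (0.02% higher and 0.0133% lower) and 11.3% with an unadjusted p under 0.05. Trim55 was below and Fbxo30 above in every Myh6-ctl heart, so 2 members did not overlap, against 17.5% of all genes (8.34% above and 9.12% below), at log2 fold changes of -0.25 (SE 0.13, edgeR adjusted p = 0.526) and 0.28 (SE 0.14, edgeR adjusted p = 0.483).

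Over the 12 hearts Trim63 and Fbxo32 varied together, with a Pearson r of 0.91 for log2 CPM, given as a description since the hearts fall into groups. For both genes Myh6-tg replicates 2 and 3 stood at 0.3145 to 0.407 times their control mean, against 0.779 to 1.66 in the other hearts. The ratio of Trim63 to Fbxo32 in scaled CPM stayed between 0.863 and 1.82, while Trim63 itself ranged from 39.1 to 206. Trim55 followed Trim63 (r = 0.81) more closely than Fbxo30 did (r = -0.34), and Foxo1 ran against Trim54 (r = -0.71). The genes most like Trim63 among all genes tested were Bcam (r = 0.96), Mtus2 (0.96) and Btrc (0.96), and among those most like Fbxo32 were Mllt3 (0.95) and Ccdc171 (0.93). Trim54 was most like Card19 (r = 0.91), Fstl4 (0.91) and Nqo1 (0.91), and Trim55 most like Fbxw5 (0.98), Ppp3cb (0.98) and Trappc9 (0.97). Fbxo30 was most like Slc43a3, Serinc3 and Gna13 (r = 0.97 to 0.98), Foxo1 like Lrp5, Asap2 and Iffo2 (0.89 to 0.90), Foxo3 like Rnpc3, Eif2a and Kansl3 (0.84 to 0.90), Foxo4 like Pwwp2a, 2610008E11Rik and Kiss1r (0.89 to 0.90) and Mstn like Has1, Bmper and Meiob (0.87 to 0.89), each over 12 hearts.

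**Figure D4:**
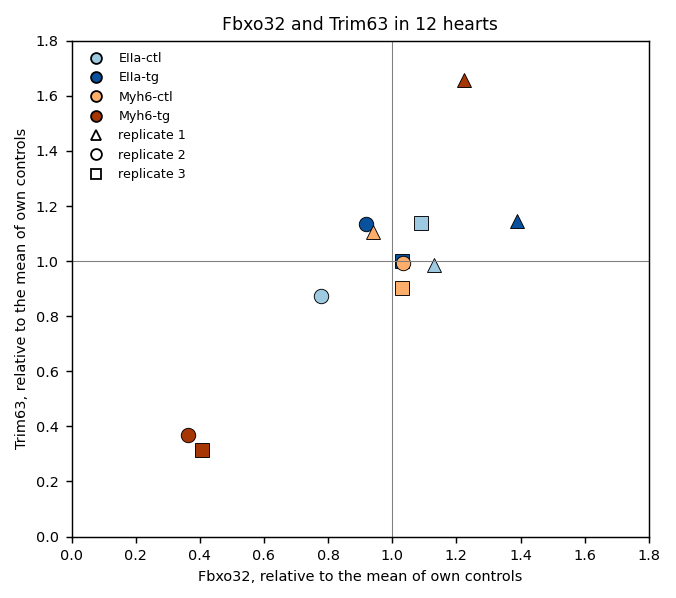
Fbxo32 (x axis) against Trim63 (y axis), each as CPM relative to the mean of that heart's own control group, in 12 hearts. Myh6-tg replicates 2 and 3 sit at 0.363 and 0.407 on the x axis and at 0.367 and 0.3145 on the y axis, Myh6-tg replicate 1 at 1.225 and 1.66, and the EIIa hearts between 0.779 and 1.39 on the x axis and between 0.875 and 1.145 on the y axis.

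The genes that work with the 9 members were read in 8 lists of the pathway, whose counts stand against 8.65% of all genes higher and 8.3% lower in EIIa-tg, 8.96% and 9.38% in Myh6-tg, and 26.7% in either direction in Myh6-tg without replicate 1. In EIIa-tg hearts the proteasome, the protease that degrades ubiquitin-tagged proteins, had 9 of 32 subunits higher and 0 lower, with a median log2 fold change of 0.23 against 0.02 over all genes. Psmd11, a subunit of the regulatory lid, rose by a log2 fold change of 0.58 (SE 0.13, edgeR adjusted p = 0.0279), Psmd7 by 0.50 and Psmd13 by 0.34. In Myh6-tg hearts 11 of 32 subunits were higher and 0 lower, with a median of 0.54 against 0.03 over all genes. Psmd8 rose by 1.68 (SE 0.26, edgeR adjusted p = 0.00718), Psmc4 by 1.45 and Psmd11 by 1.32. Psmd8 stood at 92.1, 138 and 88.1 scaled CPM in Myh6-ctl and at 263, 372 and 369.7 in Myh6-tg, so its Myh6-tg hearts were all above all controls, replicate 1 included, unlike Trim63.

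In the list of other E3 ligases, their partners and related ubiquitin genes, 2 of 28 were higher and 4 lower in EIIa-tg hearts, with a median log2 fold change of -0.03. Cblb, a ligase that acts on insulin receptor substrate, rose by 1.02 (SE 0.23, edgeR adjusted p = 0.0281) and Mdm2, the ligase of p53, by 0.73. Trim72 (-0.72), the membrane-repair protein MG53, Asb2 (-1.06) and Usp14 (-0.40), which is not a ligase, fell. In Myh6-tg hearts 2 of 28 were higher and 2 lower, with a median of 0.01; without replicate 1 it was 3 higher and 10 lower, so this list too hung on that heart. Cblb rose by 1.32 (SE 0.21, edgeR adjusted p = 0.00773) and Cul3 by 0.62, and Neurl2 (-1.63) and Mul1 (-0.79) fell. Fbxo21, Fbxo31 and the SCF scaffold Cul1 were not called in either model with all hearts, at log2 fold changes of -0.02, -0.13 and 0.05 in EIIa-tg and -0.45, -0.23 and 0.35 in Myh6-tg. In the list of ubiquitin genes, the activating enzyme and conjugating enzymes, 2 of 20 were higher and 1 lower in EIIa-tg (median 0.12) and 2 higher and 2 lower in Myh6-tg (median 0.30). Ube2j1 rose in both models (0.38 and 0.67) and Ube2d1 fell in both (-0.55 and -0.83). Ubb rose by 0.47 in EIIa-tg, though its reads are shared with near-identical ubiquitin genes and its value is uncertain, Uba1 rose by 0.93 in Myh6-tg and Ube2b fell by 0.71 there.

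Among FoxO target genes other than the members, 9 of 35 were higher and 3 lower in EIIa-tg hearts (median log2 fold change 0.07), and 7 were higher and 3 lower in Myh6-tg hearts (median 0.28). Those that rose in both models included the autophagy receptor gene Sqstm1 (p62), at 1.52 (SE 0.18, edgeR adjusted p = 0.0135) in EIIa-tg and 1.54 (SE 0.31, edgeR adjusted p = 0.01655) in Myh6-tg. Sqstm1 stood at 379, 402 and 355 scaled CPM in EIIa-ctl, at 1200 (replicate 1), 796 and 1254 in EIIa-tg, at 447, 945 and 603 in Myh6-ctl and at 1759, 1981 and 1977 in Myh6-tg. No transgenic heart overlapped its controls. Gabarapl1, an autophagosome protein gene (0.80 and 0.67), the p53-induced Trp53inp1 (1.24 and 1.801), the cell cycle inhibitor Cdkn1a (3.49 and 2.47) and the protease Ctsl (0.40 and 1.59) also rose in both, and Ulk2 (-0.51 and -0.66) and the superoxide dismutase Sod2 (-0.46 and -1.66) fell in both. In EIIa-tg Cited2 rose by 1.24 and Gadd45a, a growth-arrest gene, fell by 1.305, and in Myh6-tg Bnip3, a mitophagy receptor gene, rose by 1.31 and Trp53inp2 fell by 1.12. Pdk4, a kinase that blocks pyruvate use, had log2 fold changes of 1.68 and 0.78 and passed in neither.

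Upstream of the FoxO factors, 3 of 27 genes of insulin and Akt signalling were higher and 1 lower in EIIa-tg hearts (median log2 fold change 0.03), and 5 were higher and 1 lower in Myh6-tg hearts (median 0.20). The kinase genes Akt1 (-0.60, SE 0.13, edgeR adjusted p = 0.0229) and Akt2 (-0.75, SE 0.18, edgeR adjusted p = 0.0259) fell in EIIa-tg and Myh6-tg respectively. Akt2 stood at 157, 118 and 144 scaled CPM in Myh6-ctl and at 78.0, 85.1 and 83.0 in Myh6-tg, without overlap. Igf1 (0.83) and Sirt1 (0.39), a deacetylase, rose in EIIa-tg, Pdpk1 rose in both models (0.39 and 0.81), and the receptor gene Igf1r (1.29), the adaptor Irs2 (1.82) and Pik3cb (1.08) rose in Myh6-tg. Foxo6, the remaining forkhead factor of the family, passed in neither, at -1.25 (SE 0.49, edgeR adjusted p = 0.111) and -0.79 (SE 0.60, edgeR adjusted p = 0.395).

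In the myostatin and activin pathway, 6 of 27 genes were higher and 0 lower in EIIa-tg hearts (median log2 fold change 0.22), and 9 were higher and 0 lower in Myh6-tg hearts (median 0.46). The members that moved include binding proteins that block the ligands. Fstl3, which binds activins and myostatin, rose by 1.68 (SE 0.31, edgeR adjusted p = 0.0186) in EIIa-tg and by 3.505 (SE 0.28, edgeR adjusted p = 0.00123) in Myh6-tg, where it stood at 6.57, 12.1 and 9.71 scaled CPM in the controls and at 85.3, 116 and 117 in the transgenic hearts. Follistatin (Fst) rose by 2.99 (SE 0.48, edgeR adjusted p = 0.0166) in EIIa-tg, and in Myh6-tg it was not called with all hearts (1.64, edgeR adjusted p = 0.0804). Decorin (Dcn), which is also in the fibroblast marker list, rose by 0.94 in EIIa-tg. Ltbp3 rose in both models (0.56 and 1.655), and the protease gene Bmp1 (0.92), of the family that frees myostatin from its propeptide, rose in Myh6-tg. Gdf11, the ligand closest to myostatin, and the receptor gene Acvr2b passed in neither model, at -0.05 and -0.83 for Gdf11 and -0.60 and -0.55 for Acvr2b.

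Of other regulators of atrophy genes, 6 of 25 were higher and 0 lower in EIIa-tg hearts (median log2 fold change 0.09), and 3 were higher and 2 lower in Myh6-tg hearts (median 0.05). Fkbp5, a glucocorticoid-responsive chaperone (1.87 and 2.15), and the transcription factor Cebpd (1.30 and 1.49) rose in both models. Nfkb2 rose by 1.05 in EIIa-tg, and Per1, a clock gene, by 0.60 in EIIa-tg and 2.03 in Myh6-tg. Ppargc1a, the mitochondrial coactivator PGC-1 alpha, fell by 2.39 on the log2 scale (SE 0.34, edgeR adjusted p = 0.00588) in Myh6-tg, from 66.3, 96.9 and 143 scaled CPM to 26.1, 17.3 and 14.35, and Mef2c fell by 0.70 there. The glucocorticoid receptor gene Nr3c1 and its partner Klf15 were called in neither, at -0.24 and -0.51 for Nr3c1 and -0.10 and -0.11 for Klf15.

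Of 25 tested binding partners and substrates of the MuRF ligases and atrogin-1, 3 were higher and 2 lower in EIIa-tg hearts (median log2 fold change -0.09), and 3 were higher and 4 lower in Myh6-tg hearts (median 0.06; 4 higher and 8 lower without replicate 1). Desmin (Des), an intermediate filament, rose in both models (1.04 and 2.155), and vimentin (Vim) rose by 1.09 in Myh6-tg. The thick-filament light chain Myl2 (-2.07), troponin I (Tnni3, -2.39) and creatine kinase (Ckm, -2.81) fell in Myh6-tg. The beta myosin gene Myh7 rose by 1.865 in EIIa-tg, and Acta1 (-1.07) fell there. Titin (Ttn), which the MuRF ligases bind, was not called, at -0.17 and 0.03. Of this list, 5 genes are also in the cardiomyocyte marker list.

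These list counts moved with the hearts used. In the EIIa model, with each of the 6 hearts left out in turn, the proteasome had between 0 and 16 subunits higher, FoxO targets between 0 and 12 and the myostatin list between 0 and 9, and the proteasome and myostatin lists had no call in 4 of the 6 fits. Among EIIa hearts without Y-linked counts, all 8 lists had 0 calls by edgeR, and with all 12 hearts FoxO targets had 5 higher and 1 lower, regulators 3 higher, myostatin genes 2 higher, partners 1 higher and the other lists 0, while the list medians for the proteasome were 0.21 and 0.23. In the Myh6 model the corresponding ranges with single hearts left out were 3 to 13, 2 to 10 and 3 to 12, and with all 12 hearts the proteasome had 22 subunits higher, FoxO targets 12 higher and 4 lower and the myostatin list 13 higher and 1 lower. On FPKM with a pseudocount of 1, where the median of all genes was itself 0.16 in EIIa-tg and 0.34 in Myh6-tg, 21 and 30 of 32 subunits were higher by limma, and with no filter 0 and 29. Among Myh6 hearts without Y-linked counts the proteasome had 7 subunits higher. With the replicate number as a block in the Myh6 fit, the list of other ligases had 1 higher and 4 lower, and that of ubiquitin and conjugating enzymes 4 higher and 2 lower.

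**Figure D5:**
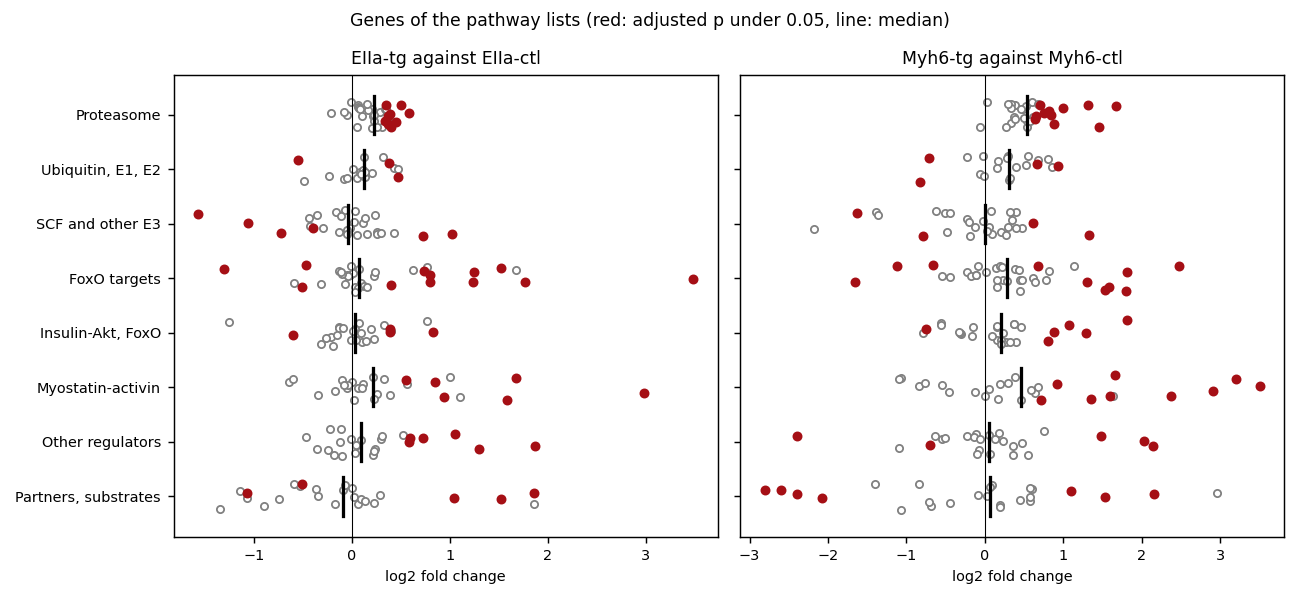
Log2 fold change of each tested gene of 8 pathway lists, in EIIa-tg (left) and Myh6-tg hearts (right); red points had an adjusted p under 0.05 (edgeR), and black lines are medians. Proteasome medians stand at 0.23 and 0.54, and the myostatin and activin list reaches 3.505, for Fstl3, on the right.

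By GENCODE M21 on GRCm38, Trim63 spans chr4:134315120-134329629 and Trim54 chr5:31116712-31137630, both on the plus strand, Trim55 and Foxo1 lie on chromosome 3 (chr3:19644474-19692421 and chr3:52268336-52353221, plus strand), and Fbxo30 (chr10:11281330-11298052, plus) and Foxo3 (chr10:42181841-42276755, minus) on chromosome 10. Fbxo32 lies at chr15:58175879-58214932 (minus), Foxo4 at chrX:101254528-101260873 (plus) and Mstn at chr1:53061640-53068079 (plus). Antisense genes span exons of Fbxo32 (Gm15943), Trim54 (Gm15469) and Foxo1 (Gm20402); since the counting is not stated to use strand, reads from a gene and its antisense partner cannot be told apart.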

How the data were processed

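Heart RNA of 12 mice, 4 groups of 3 separately labelled animals, was analysed from deposited tables. Per the submitters' processing notes, the authors used HISAT2 2.0.4, StringTie 2.2.1 and DESeq2, with GRCm39 and mm10 named; the methods name GRCm38. The deposited count table held raw whole-number counts per locus, and the authors' FPKM table scaled counts by transcript length and library. The labels of the extraction protocol name brain tissue. Here, edgeR 4.0.16 (quasi-likelihood, TMM, filterByExpr, R 4.3.3) was fitted across all genes on the 6 hearts of each comparison and on 12 hearts for the difference, with Benjamini-Hochberg adjustment and calls at an adjusted p under 0.05; no gene passed 0.01 with a log2 fold change of at least 1 among the members. The members and lists were chosen with earlier results of these data known. Named genes were the 9 members, the 3 genes most like each by Pearson r, the 3 called genes with the lowest p per list, direction and model, and 17 others fixed by name. Some results under this rule are not reported here. Depth per library limits precision as given above; floors cover counting error only. No sample title states a pairing by replicate number. Each Myh6-ctl heart correlated best with the Myh6-tg heart of its own number (correlations of deviations 0.285, 0.184 and 0.174), but replicate 1 alone held Y-linked genes in each group. The replicate block left the member count at 0 in the Myh6 comparison. In the EIIa hearts only replicate 1 correlated best with its own number. Alternatives were DESeq2 1.42.0, RLE factors, other filters, all 12 hearts, a replicate block, a Y-linked term, mitochondrial genes left out, limma 3.58.1 on log2(FPKM + 1) or (FPKM + 0.1), and each heart left out. The fits were tested on simulated data. Figures used matplotlib in Python.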

Additional observations from a re-analysis of the deposited data

Results flagged for a closer look

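None of the 9 members differed between the models by the test of the Myh6 change minus the EIIa change over all 12 hearts. Among the partner genes named, 10 did (edgeR quasi-likelihood test of the difference, adjusted over all genes), and each is given as log2 values with no explanation. Ppargc1a had a difference of -2.285 (adjusted p = 0.0112), with changes of -0.11 in EIIa-tg and -2.39 in Myh6-tg. Fstl3 differed by 1.82 (adjusted p = 0.0422), Gadd45a by 1.75 (adjusted p = 0.0242), with -1.305 in EIIa-tg and 0.445 in Myh6-tg, and Nfkb2 by -0.99 (adjusted p = 0.0454). Among proteasome subunits Psmd8 differed by 1.25 (adjusted p = 0.0329) and Psmc4 by 1.11 (adjusted p = 0.0242). Pik3cb differed by 1.20 (adjusted p = 0.0222), Ctsl by 1.18 (adjusted p = 0.0192), Igf1r by 1.08 (adjusted p = 0.0102) and Cul3 by 0.69 (adjusted p = 0.0459). The calls for the difference moved with the hearts used. The proteasome list had 4 genes higher with all hearts, 0 without EIIa-ctl replicate 1, 2 or 3, and 7 without Myh6-tg replicate 1. FoxO targets had 2 higher with all hearts and 0 without EIIa-ctl replicate 1, 2 or 3. The list of other E3 ligases had 1 higher with all hearts and 0 without any single EIIa heart. The insulin and Akt list had 2 higher with all hearts and 1 without any single EIIa heart. Groups of 3 hearts were not tested for single outlying samples.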

How the results depend on the processing

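The count of members called in EIIa-tg hearts was 2 and ran from 0 to 5 with single hearts left out (0 to 4079 genes); it was 0 in the fit of all 12 hearts (227 genes called, against 2527), with a replicate block (1 gene), among hearts without Y-linked counts (0 genes), on FPKM with no filter (1 gene) and at an adjusted p under 0.01 with a log2 fold change of at least 1, and 1 with a term for Y-linked counts (1680 genes). On FPKM with a pseudocount of 1, 2 members, Trim54 and Fbxo30, were higher and 0 lower, and the median of all genes moved to 0.16 (0.34 in Myh6-tg); relative to that median Trim54 was at 0.52, Fbxo30 at 0.26, Trim55 at -0.43 and Foxo1 at -0.31. In Myh6-tg hearts the count was 0 (2805 genes) and ran from 0 to 3 with single hearts left out (798 to 4269 genes), was 3 among hearts without Y-linked counts, and 1 (Fbxo30) with all 12 hearts and on FPKM with pseudocount 1, with pseudocount 0.1 and with no filter. The difference ran from 0 to 3 with single hearts left out and was 2 among hearts without Y-linked counts. With DESeq2, genes called numbered 1395 for the difference and 428 between controls, against 624 and 5; the difference ran from 293 to 1727 genes with single hearts left out, and the controls from 1 to 98 genes under all other alternatives. The replicate block in the Myh6 fits, the difference and the controls changed no member call. In EIIa hearts and between the control groups, only replicate 1 correlated best with its own number, with EIIa correlations of 0.060, -0.070 and -0.050.

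Signs that turned were all of changes not called. On FPKM, EIIa values were 0.0614, 0.0685 and 0.0614 for Foxo3 and 0.15, 0.16 and 0.15 for Foxo4 (pseudocount 1, pseudocount 0.1, no filter), Myh6 values 0.0373, 0.0370 and 0.0373 for Trim54, 0.0424, 0.0421 and 0.0424 for Trim55, and 0.29, 0.32 and 0.29 for Foxo4, and the difference for Foxo4 0.14, 0.16 and 0.14. Among hearts without Y-linked counts, Myh6 values were -0.18 for Foxo3 and 0.0380 for Foxo4, differences -0.23 for Trim55, -0.0170 for Foxo3 and 0.11 for Foxo4, and the control value for Foxo3 0.10. With single hearts left out, EIIa values ran from -0.0331 to 0.28 for Fbxo32 and from -0.12 to 0.0531 for Foxo4; Myh6 values from -1.54 to 0.0359 for Trim63, -0.78 to 0.0216 for Trim54, -0.0402 to 0.36 for Foxo3 and -0.33 to 0.0838 for Foxo4; differences from -0.27 to 0.39 for Trim55 and -0.30 to 0.11 for Foxo4; and control values from -0.32 to 0.0897 for Foxo3 and -0.38 to 0.0498 for Foxo4. Relative to the FPKM median of all genes (pseudocount 1), Foxo3 (-0.10) and Foxo4 (-0.01) in EIIa and Trim54 (-0.30), Trim55 (-0.30) and Foxo4 (-0.05) in Myh6 kept the sign they had on counts. The cause of the other turns was not tested. With 3 hearts a group, smaller changes may go undetected, and Mstn lies near the floor of the depth.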
